A study of Mus musculus with 4 samples.

Results

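Smooth muscle cells of the colon were picked out of single-cell libraries of CD11b-selected colon cells by their contractile transcripts. A cell was a smooth muscle member when its barcode carried at least 10 unique molecular identifiers (UMIs, each standing for 1 captured transcript) of Myh11 and Actg2 together, at most 4 of the endothelial genes Kdr, Flt1, Plvap and Cdh5 together, at most 1 of the macrophage receptor gene Csf1r and 0 of the epithelial gene Epcam. Before that, barcodes with under 200 genes or over 10% mitochondrial UMIs were left out. The rule found 236 members among 16557 kept cells. Since measured values of Myh11 and Actg2 chose the members, their levels are given as a description.

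The groups were Csf2-/- SILT, Csf2+/+ SILT, Csf2-/- lamina propria and Csf2+/+ lamina propria, with 1 library each. SILT are the solitary isolated lymphoid tissues of the colon, small lymphoid aggregates in the gut wall, and the lamina propria is the connective tissue under the gut epithelium. Csf2 encodes the growth factor GM-CSF, and the Csf2-/- mice lack it. All 4 groups also carried the reporter alleles CX3CR1-GFP/+ and CCR2-RFP/+, no treatment was labelled, and the age and sex of the mice are not given in the sources used here. The design text counts 5 mice and does not state how their cells were pooled. With 1 library per group there is no replicate check, so no test was made. Every interval is an exact 95% interval that covers counting error only.

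Smooth muscle contracts when calcium bound to calmodulin activates myosin light chain kinase, which phosphorylates myosin so that it pulls on actin filaments. Nitric oxide, through soluble guanylate cyclase and cyclic GMP, relaxes it. In the colon, smooth muscle forms the muscularis externa and the thin muscularis mucosae beneath the lamina propria, and it also surrounds arteries and veins, while pericytes are the contractile cells on capillaries.

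Over all kept cells Csf2 had 0 UMIs in Csf2-/- SILT against 24 in Csf2+/+ SILT, and 0 in Csf2-/- lamina propria against 2 in Csf2+/+ lamina propria. The libraries held 19225644 to 67656927 UMIs in 2158 to 8041 barcodes, and the median kept cell had 5886 to 9956 UMIs. The members summed to 67574 UMIs in Csf2-/- SILT, 860573 in Csf2+/+ SILT, 149033 in Csf2-/- lamina propria and 1180039 in the Csf2+/+ lamina propria. The median member had 5523 UMIs in Csf2-/- SILT, 7123 in Csf2+/+ SILT, 8871.5 in Csf2-/- lamina propria and 11491.5 in the Csf2+/+ lamina propria, so each Csf2-/- group rested on fewer and shallower cells than the Csf2+/+ group of its tissue. CD11b, encoded by Itgam, was the selected protein, but the members had 0 to 7 Itgam UMIs per library, so their numbers describe what came through the selection and not the tissue. Xist, the X-inactivation transcript of female cells, summed to 843.5 CPM (counts scaled to a total of 1000000 over the members of a library) in Csf2-/- SILT, 131.3 in Csf2+/+ SILT, 999.8 in Csf2-/- lamina propria and 397.4 in the Csf2+/+ lamina propria, and the Y-linked gene Ddx3y to 13.4 to 68.6, so genotype and the mix of sexes cannot be told apart. Pairs of libraries shared 3 to 19 barcodes, and no barcode was a member in both libraries of a pair.

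The contractile genes named here are classical targets of serum response factor, which binds the CArG box. The motif, 2 C followed by 6 bases that are each A or T and by 2 G, was searched on both strands. In RefSeq promoters of build GRCm38.p6, the window from 250 bases before to 50 bases after the start held a CArG box in 6 of the 21 contractile filament genes that the table holds, a share of 28.6%, against 1.81% of all 27025 genes. Myh11, Actg2 and Tagln were among the 5 genes of that list with no entry. Of the adhesion and intermediate filament genes, 2 of 20 held one, of the visceral muscle genes 2 of 19, of the vascular muscle and pericyte genes 1 of 21, and of the contraction regulators 0 of 11. The 250 bases before the start of 3 genes with a box are shown 5′ to 3′ to display the element, with the CArG box in capitals. Myl9 encodes the regulatory light chain of smooth muscle myosin, Vcl encodes vinculin, which anchors actin at the membrane, and Filip1l encodes a relative of a filamin-interacting protein. The windows lie at chr2:156775214-156775463, chr14:20929148-20929397 and chr16:57548992-57549241, all on the plus strand, and the boxes begin 161, 227 and 62 bases before the start. A match is a description of these letters and not a bound site.
Myl9: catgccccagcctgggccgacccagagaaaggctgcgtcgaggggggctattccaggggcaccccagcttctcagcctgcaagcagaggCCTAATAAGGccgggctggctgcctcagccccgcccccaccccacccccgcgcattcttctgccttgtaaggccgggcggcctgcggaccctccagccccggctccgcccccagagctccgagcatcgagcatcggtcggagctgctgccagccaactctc
Vcl: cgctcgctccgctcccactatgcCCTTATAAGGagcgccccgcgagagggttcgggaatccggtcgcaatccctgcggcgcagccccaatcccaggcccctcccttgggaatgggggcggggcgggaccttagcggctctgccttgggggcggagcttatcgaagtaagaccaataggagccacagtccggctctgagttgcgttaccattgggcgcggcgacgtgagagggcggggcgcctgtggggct
Filip1l: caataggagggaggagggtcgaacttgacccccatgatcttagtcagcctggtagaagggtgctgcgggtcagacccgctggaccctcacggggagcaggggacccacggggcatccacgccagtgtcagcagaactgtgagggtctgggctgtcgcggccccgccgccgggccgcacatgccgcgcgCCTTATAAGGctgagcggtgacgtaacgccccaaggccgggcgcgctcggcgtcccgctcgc

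Of the 4 markers of the label, Myh11 and Actg2 chose the members, so their excess over other cells was fixed by the rule and is a description. Acta2 and Des were not used by it. The members were set beside cells gated for other types in the same libraries; pericyte-gated cells had at least 5 UMIs of Rgs5, Kcnj8 and Abcc9 together and under 10 of Myh11 and Actg2. Myh11, the smooth muscle myosin heavy chain, was at 4810 CPM in Csf2-/- SILT, 6013 in Csf2+/+ SILT, 3603 in Csf2-/- lamina propria and 6470 in the Csf2+/+ lamina propria, and smooth muscle actin, Acta2, was at 5875 CPM in Csf2-/- SILT members and 9574 in Csf2+/+ SILT, and 6193 in Csf2-/- lamina propria and 5786 in the Csf2+/+ lamina propria. Actg2, the actin of visceral muscle, was at 591.9 CPM in Csf2-/- SILT members and 1434 in Csf2+/+ SILT, and 778.4 in Csf2-/- lamina propria and 837.3 in the Csf2+/+ lamina propria. Acta2 was at 316.8 to 849.0 CPM in the pericyte-gated cells, more than 2-fold under the members of every library, and Actg2, which the pericyte gate holds low, at 0 to 19.2 CPM. Des, the muscle intermediate filament desmin, was not higher in members. It was at 370.0 CPM in Csf2-/- SILT members, 177.8 in Csf2+/+ SILT, 718.0 in Csf2-/- lamina propria and 339.0 in the Csf2+/+ lamina propria, against 414.2 to 769.9 CPM in the pericyte-gated cells of the 4 libraries.

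When each cell was thinned to 1000 UMIs, an Actg2 UMI was found in 55.6% of members in Csf2-/- SILT and 61.9% in Csf2+/+ SILT, and in 31.2% in Csf2-/- lamina propria and 41.8% in the Csf2+/+ lamina propria. Endothelial-gated cells thinned to the same depth had one in 0 to 0.143%. Their gate holds Myh11 and Actg2 low, so this contrast was fixed by the gates and is a description. At full depth the shares of members were 77.8% in Csf2-/- SILT and 88.5% in Csf2+/+ SILT, and 62.5% in Csf2-/- lamina propria and 75.5% in the Csf2+/+ lamina propria. The median member carried 2 to 7.5 Actg2 UMIs by library, against 17 to 68 of Myh11.

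Some members went against the label. In Csf2-/- SILT, 1 of the 9 members had 23 UMIs of Kit and 19 of Ano1, both markers of the interstitial cells of Cajal that pace the gut, with 26 of Gja1 and only 6 of Myh11. No other member of any library had a Kit UMI. In Csf2+/+ lamina propria, 5 of the 98 members had 27 to 55 UMIs of the fibroblast receptor gene Pdgfra and 10 to 25 of Gja1, and 4 of those 5 had no Actg2 UMI. These 6 cells keep the name of the rule only. Some members rich in the pericyte gene Rgs5 also had few or no UMIs of the label's actins. In Csf2+/+ lamina propria, members with 94 and 97 Rgs5 UMIs had 0 UMIs of Acta2 and of Actg2. In Csf2-/- lamina propria, members with 99 and 32 Rgs5 UMIs had 0 UMIs of Actg2 and 1 of Acta2. Members with at most 2 Actg2 UMIs were found in every library. They were 5 of 9 in Csf2-/- SILT and 25 of 113 in Csf2+/+ SILT. In lamina propria they were 9 of 16 in Csf2-/- and 32 of 98 in Csf2+/+.

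Markers of other cell types in the members were low for endothelium (a summed level of 236.8 to 288.5 CPM over 12 genes, against 23730 to 25895 in endothelial-gated cells) and macrophages (275.1 to 657.7 CPM over 12 genes, against 24597 to 33037 in macrophage-gated cells). Epithelial markers summed to 0 to 46.5 CPM and mesothelial markers to 0 to 10.5 CPM. The 9 pericyte markers were different: they summed to 3996 CPM in Csf2-/- SILT, 1719 in Csf2+/+ SILT, 8709 in Csf2-/- lamina propria and 3290 in the Csf2+/+ lamina propria, against 10960 to 18291 CPM in pericyte-gated cells. The 11 fibroblast markers summed to 5816 to 9267 CPM, most of it collagen, with Col3a1 at 3189 to 4223 CPM. Fibroblast-gated cells had 12119 to 21942 CPM. Dcn, also on that list, had UMIs in 6 of 9 Csf2-/- SILT members and 96 of 113 Csf2+/+ SILT members. In lamina propria it had them in 12 of 16 Csf2-/- and 76 of 98 Csf2+/+ members. The rule held down Kdr, Flt1, Plvap, Cdh5, Csf1r and Epcam, and the comparison gates chose on genes of these lists. These levels and contrasts were therefore partly fixed.

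The share of members among kept cells was 0.378% in Csf2-/- SILT, which is 9 of 2378 cells (interval 0.173 to 0.717%), against 1.46% in Csf2+/+ SILT, which is 113 of 7714 (1.21 to 1.76%). It was 0.811% in Csf2-/- lamina propria, 16 of 1974 (0.464 to 1.31%), against 2.18% in Csf2+/+ lamina propria, 98 of 4491 (1.78 to 2.65%). The Csf2-/- to Csf2+/+ ratio of shares was 0.258 in SILT (0.115 to 0.508) and 0.371 in lamina propria (0.204 to 0.634). The SILT to lamina propria ratio was 0.671 in Csf2+/+ (0.508 to 0.889) and 0.467 in Csf2-/- (0.182 to 1.12), so the Csf2-/- interval reached past 1. These ratios count 1 library against 1 other, and whether mice of a group differ as much is not known from the files.

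**Figure D1:**
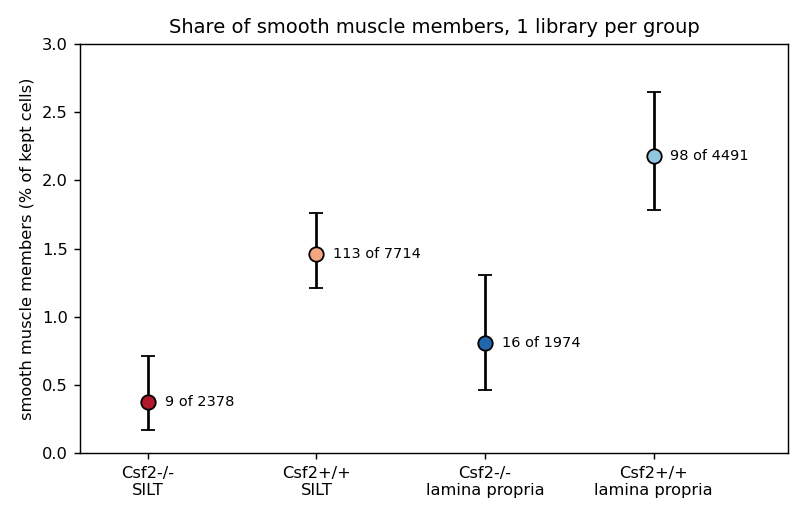
Share of smooth muscle members among kept cells (% on the y axis, from 0) in the 4 libraries on the x axis, with exact 95% binomial bars for counting error and the number of members beside each point. The Csf2-/- point sits lower than the Csf2+/+ point of its tissue, 0.378% against 1.46% in SILT and 0.811% against 2.18% in lamina propria.

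The rule's other conditions removed 5 of 14 cells over the muscle threshold in Csf2-/- SILT, 47 of 160 in Csf2+/+ SILT, 8 of 24 in Csf2-/- lamina propria and 42 of 140 in Csf2+/+ lamina propria. Endothelial genes were the most frequent reason, for 5 cells in Csf2-/- SILT and 33 in Csf2+/+ SILT, and for 8 in Csf2-/- lamina propria and 31 in the Csf2+/+ lamina propria. Cells just outside the threshold had 5 to 9 UMIs of Myh11 and Actg2, and cells just inside had 10 to 14. Csf2-/- SILT had 3 cells outside and 3 inside, all with at least 5 UMIs of the pericyte gene Rgs5. Csf2+/+ SILT had 31 outside, 21 of them with at least 5 Rgs5 UMIs, and 13 inside, 8 of them with as many. Csf2-/- lamina propria had 16 outside, 15 of them with at least 5 Rgs5 UMIs, and 5 inside, all with as many. Csf2+/+ lamina propria had 48 outside, 39 of them with at least 5 Rgs5 UMIs, and 12 inside, 8 of them with as many. At least 3 UMIs of Hhip, a gene described next, were found in at most 6 cells of an edge in any library. The edge of the rule therefore runs through Rgs5-carrying cells.

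Levels of the contractile machinery are given in members beside pericyte-gated cells of the same library. Thin filament and associated genes were abundant. Tagln, the actin-bundling protein transgelin, was at 5786 CPM in Csf2-/- SILT members, 8602 in Csf2+/+ SILT, 5328 in Csf2-/- lamina propria and 4699 in the Csf2+/+ lamina propria, against 396.3 to 1007 CPM in pericyte-gated cells. Tpm1, a tropomyosin that lies along the actin filament, was at 4188 CPM in Csf2-/- SILT members and 6885 in Csf2+/+ SILT, and 3999 in Csf2-/- lamina propria and 4369 in the Csf2+/+ lamina propria, against 1325 to 1891 CPM in pericyte-gated cells. Cnn1, calponin, which brakes the myosin motor, was at 399.6 CPM in Csf2-/- SILT members and 858.7 in Csf2+/+ SILT, and 348.9 in Csf2-/- lamina propria and 566.9 in the Csf2+/+ lamina propria, and pericyte-gated cells had 0 to 19.2 CPM. Lmod1, leiomodin, which seeds actin filaments, was at 382.5 to 844.8 CPM in members.

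The regulators of contraction followed. Mylk, the myosin light chain kinase, was at 1583 CPM in Csf2-/- SILT members, 2071 in Csf2+/+ SILT, 1731 in Csf2-/- lamina propria and 2490 in the Csf2+/+ lamina propria, against 373.1 to 614.4 CPM in pericyte-gated cells. Ppp1r14a, which inhibits myosin phosphatase and so prolongs contraction, was at 399.6 CPM in Csf2-/- SILT members and 821.5 in Csf2+/+ SILT, and 543.5 in Csf2-/- lamina propria and 623.7 in the Csf2+/+ lamina propria, against 10.6 to 68.6 CPM in pericyte-gated cells. Myocd, the coactivator of serum response factor in smooth muscle, was at 103.6 CPM in Csf2-/- SILT members and 96.4 in Csf2+/+ SILT, and 93.9 in Csf2-/- lamina propria and 165.2 in the Csf2+/+ lamina propria, against 0 to 4.93 CPM in pericyte-gated cells. Kcnma1, the pore of the large-conductance potassium channel, was at 67.1 to 177.8 CPM in members against 0 to 9.60 CPM. Of the genes of the nitric oxide pathway, Gucy1a1, a subunit of soluble guanylate cyclase, ran the other way, at 399.6 to 671.0 CPM in members and 862.6 to 1148 CPM in pericyte-gated cells.

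Counted over lists without the genes of the members' rule, 9 of 24 contractile filament genes were at least 2-fold higher in members than in pericyte-gated cells in all 4 libraries, against 2.91% of all 10573 genes measured, and 16 of 24 were higher than in endothelial-gated cells, against 8.57% of 12479. Beside fibroblast-gated cells 12 of 24 were higher, against 1.73% of all genes; the fibroblast gate also held Rgs5-rich cells. For adhesion and intermediate filament genes, which include vinculin, filamin and integrins, 10 of 25 were higher than in pericyte-gated cells. Of the contraction regulators 3 of 16 were, of the visceral muscle genes 6 of 15, and of the channels and pumps 4 of 27, with 3 of 27 lower. Of the vascular muscle and pericyte genes, 1 of 26 was higher and 12 of 26 were lower, against 2.39% of all genes lower; the pericyte gate's own 3 genes are on that list. The gate chose on genes of the same cells, so these counts describe the gates. Chrm2 and Chrm3, the acetylcholine receptors of visceral muscle, had 0 UMIs in members of every library. The limit that 3 counts allow was 44.4 CPM in Csf2-/- SILT, 3.49 in Csf2+/+ SILT, 20.1 in Csf2-/- lamina propria and 2.54 in the Csf2+/+ lamina propria.

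**Figure D2:**
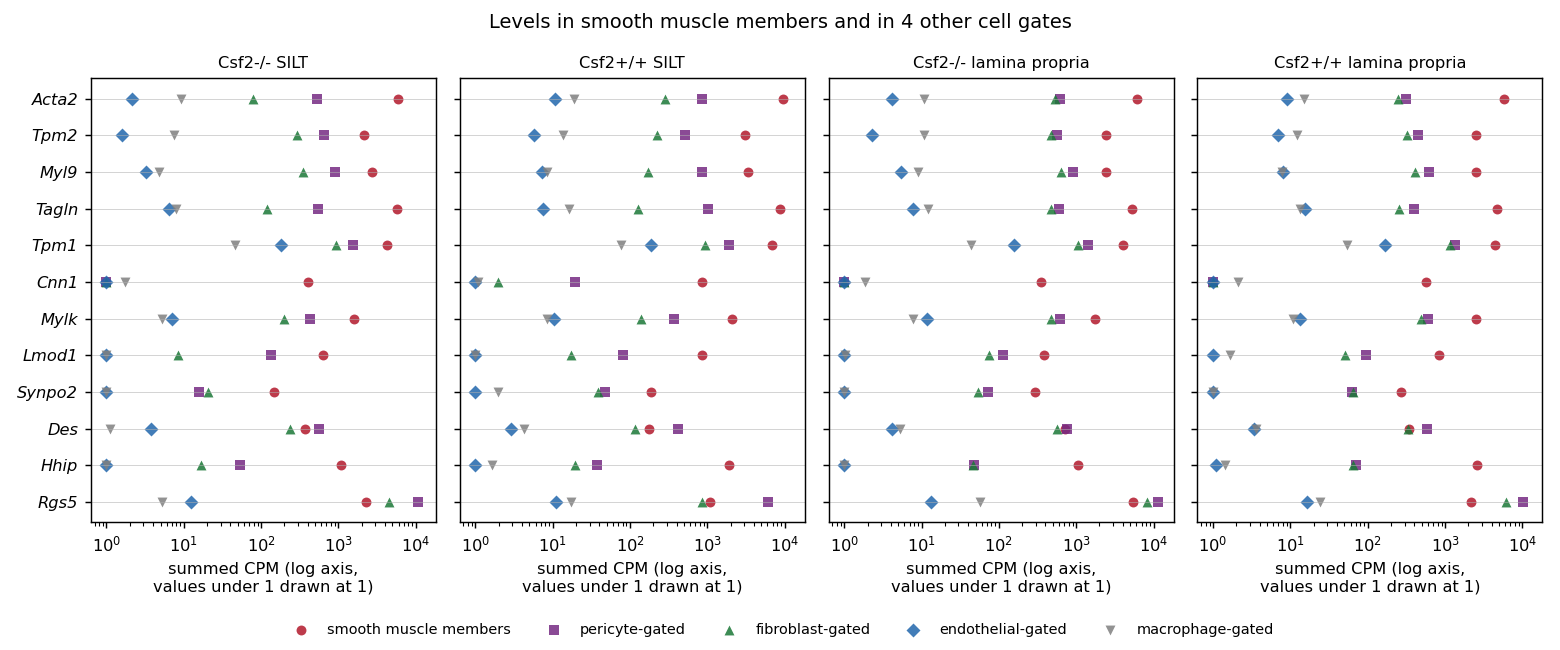
Summed CPM on a log x axis (values under 1 drawn at 1) of 12 genes down the y axis in 1 panel per library, for smooth muscle members and 4 other cell gates. Members lie to the right of the pericyte-gated cells for every gene from Acta2 to Synpo2 and for Hhip, and to the left for Rgs5, while Des lies at or to the left of them.

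Signalling genes with a link to the niche were read in the same way. Csf2 had 0 UMIs in the members of all 4 libraries, and the receptor chain Csf2ra had 0 to 9 UMIs and Csf2rb 0 to 4 UMIs per library. Csf1, the growth factor of macrophages, was at 207.2 CPM in Csf2-/- SILT members, 159.2 in Csf2+/+ SILT, 100.6 in Csf2-/- lamina propria and 186.4 in the Csf2+/+ lamina propria, against 15.9 to 42.8 CPM in pericyte-gated and 39.1 to 67.0 CPM in endothelial-gated cells. Of 12 measured purinergic genes, which make, break down or sense extracellular nucleotides, 3 were at least 2-fold higher than in pericyte-gated cells in all 4 libraries, Entpd1, Enpp1 and P2ry1, and 2 were lower, against 2.91% and 2.39% of all genes. Entpd1, CD39, which hydrolyses extracellular ATP and ADP, was at 281.2 CPM in Csf2-/- SILT members and 371.8 in Csf2+/+ SILT, and 154.3 in Csf2-/- lamina propria and 347.4 in the Csf2+/+ lamina propria, against 13.6 to 42.5 CPM in pericyte-gated cells. P2ry14, a receptor for UDP-glucose, was at 296.0 CPM in Csf2-/- SILT members and 327.7 in Csf2+/+ SILT, and 127.5 in Csf2-/- lamina propria and 215.2 in the Csf2+/+ lamina propria, against 63.5 to 87.8 CPM in pericyte-gated cells, and so past 2-fold in every library but Csf2-/- lamina propria. Enpp1, which hydrolyses ATP to AMP and pyrophosphate, was at 33.5 to 83.9 CPM. P2rx1, the ATP-gated channel of smooth muscle, was at 0 to 3.49 CPM in members. Beside fibroblast-gated cells, 1 of 13 purinergic genes was higher and 1 lower in all 4 libraries, against 1.73% and 2.18% of all genes.

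Developmental signals were also present. Hhip, which binds and holds back hedgehog ligands, was at 1065 CPM in Csf2-/- SILT members, 1931 in Csf2+/+ SILT, 1040 in Csf2-/- lamina propria and 2608 in the Csf2+/+ lamina propria, against 37.0 to 69.5 CPM in pericyte-gated cells. Ptch1, the hedgehog receptor and a target of the pathway, was at 399.6 CPM in Csf2-/- SILT members and 727.4 in Csf2+/+ SILT, and 355.6 in Csf2-/- lamina propria and 832.2 in the Csf2+/+ lamina propria. Bmp4 and Bmp5, ligands of the bone morphogenetic protein family, were at 162.8 to 520.3 and 103.6 to 266.1 CPM, and Igf1, a growth factor, at 162.8 to 431.1 CPM. Of the 44 genes of BMP, Wnt and other niche signals that were measured, 11 were at least 2-fold higher than in pericyte-gated cells in all 4 libraries and 1 was lower, against 2.91% and 2.39% of all genes. Beside fibroblast-gated cells 3 of 50 niche genes were higher and 6 lower, against 1.73% and 2.18% of all genes. Of 32 interferon response genes none was higher than in pericyte-gated cells.

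The members were not alike. A split on Hhip and Rgs5, chosen after their values were seen, put most of them on 1 of 2 sides. The Hhip side, with at least 3 Hhip and under 5 Rgs5 UMIs, held 5 members in Csf2-/- SILT (55.6%, interval 21.2 to 86.3%), 67 in Csf2+/+ SILT (59.3%, 49.6 to 68.4%), 4 in Csf2-/- lamina propria (25.0%, 7.27 to 52.4%) and 51 in Csf2+/+ lamina propria (52.0%, 41.7 to 62.2%). The Rgs5 side, with at least 5 Rgs5 and under 3 Hhip UMIs, held 4 members in Csf2-/- SILT (44.4%, 13.7 to 78.8%) and 27 in Csf2+/+ SILT (23.9%, 16.4 to 32.8%), and 11 in Csf2-/- lamina propria (68.8%, 41.3 to 89.0%) and 29 in the Csf2+/+ lamina propria (29.6%, 20.8 to 39.7%). Both genes passed their threshold in 0 members in Csf2-/- SILT and 11 in Csf2+/+ SILT, and in 1 in Csf2-/- lamina propria and 12 in the Csf2+/+ lamina propria. Neither did in 8 members of Csf2+/+ SILT and 6 of Csf2+/+ lamina propria. The sides are ranges of 2 genes and not named types. The intervals of the 2 lamina propria groups for the Hhip side overlapped, at 7.27 to 52.4% in Csf2-/- and 41.7 to 62.2% in Csf2+/+. For the Rgs5 side they did not overlap, at 41.3 to 89.0% in Csf2-/- and 20.8 to 39.7% in Csf2+/+. Both sets of intervals count cells of 1 library each and do not measure the spread between mice. Whether the groups differ was not tested.

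**Figure D3:**
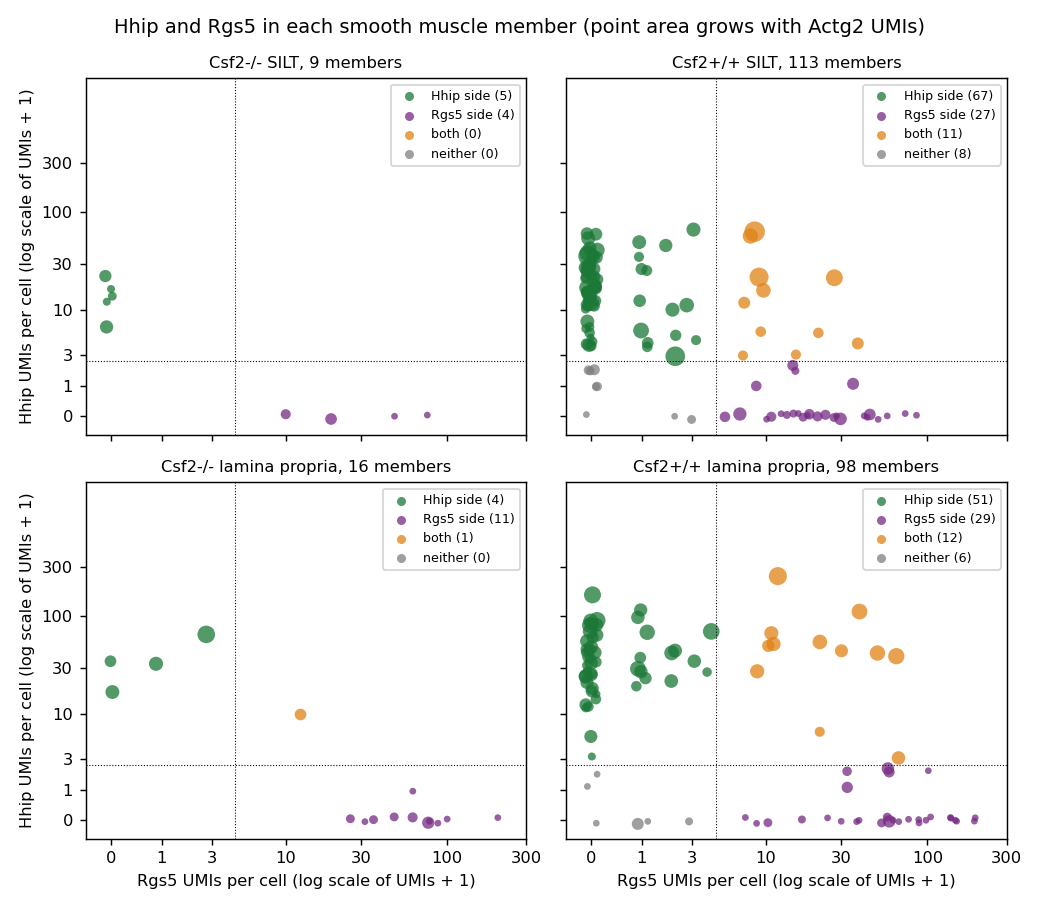
Hhip UMIs (y axis) against Rgs5 UMIs (x axis), both as log of UMIs plus 1, for each smooth muscle member with a small random shift, in 1 panel per library; dotted lines mark 3 Hhip and 5 Rgs5 UMIs, point area grows with Actg2 UMIs and colour gives the side. Members crowd along the 2 axes, with 67 on the Hhip side and 27 on the Rgs5 side in Csf2+/+ SILT, and points with many Actg2 UMIs are mostly on the Hhip side or carry both genes.

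Genes were compared between the sides in Csf2+/+ lamina propria and read again in Csf2+/+ SILT, whose cells the first reading did not use. Of 3354 genes, 182 were at least 4-fold higher on the Hhip side in lamina propria (5.43%), and 144 of these 182 (79.1%) were at least 2-fold higher in SILT, where 11.2% of all genes were. In the other direction 83 were at least 4-fold lower (2.47%), and 81 of the 83 (97.6%) were at least 2-fold lower in SILT, against 7.27% of all genes. The 2 libraries come from different samples, and the sides in both were set by the same 2 genes.

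Several contractile genes were higher on the Hhip side, and Des was lower. Actg2 and Myh11 chose the members, so their levels on the sides are a description. Actg2 was at 1144 CPM on the Hhip side against 143.2 on the Rgs5 side in Csf2+/+ lamina propria, and at 1647 against 457.3 in Csf2+/+ SILT. The order held in Csf2-/- SILT, at 1166 against 275.5, and in Csf2-/- lamina propria, at 1822 against 218.7. Cnn1 was at 829.5 CPM on the Hhip side against 82.7 on the Rgs5 side in Csf2+/+ lamina propria, a ratio of 10.0 (6.76 to 15.5), and the SILT ratio was 3.84 (2.84 to 5.29). Ppp1r14a had ratios of 8.06 in lamina propria and 4.74 in SILT, and Myh11 of 2.37 and 2.12. Tagln differed little, with ratios of 1.29 and 0.895. Des ran the other way, at 99.9 CPM on the Hhip side against 964.0 on the Rgs5 side in lamina propria and 73.8 against 501.9 in SILT. Over the lists without the rule's genes, 4 of 22 contractile filament genes were at least 2-fold higher and 1 lower on the Hhip side in both libraries. Of all genes 7.36% were higher and 4.47% lower.

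The genes that stood furthest from the Rgs5 side included receptors and secreted proteins. F2r, the thrombin receptor PAR1, was at 832.8 CPM on the Hhip side against 22.3 on the Rgs5 side in Csf2+/+ lamina propria, and the SILT ratio was 31.5. Rgs10, a regulator of G protein signalling, was at 1435 CPM against 38.2. Bdkrb2, the bradykinin B2 receptor, was at 355.5 against 3.18. Ogn, the matrix proteoglycan osteoglycin, was at 3106 CPM against 124.1 in lamina propria and 2681 against 474.0 in SILT, and Fn1, fibronectin, at 1324 against 54.1 and 683.4 against 105.9. Igf1 was at 606.0 CPM against 0 in lamina propria and 583.1 against 44.6 in SILT. The niche signal Wnt5a was at 123.6 CPM against 6.36 in lamina propria and 98.4 against 11.2 in SILT. Of 4 purinergic genes over the floor, 3 were at least 2-fold higher on the Hhip side in both libraries, against 7.36% of all genes: P2ry14 with ratios of 4.61 in lamina propria and 2.81 in SILT, Entpd1 with 4.41 and 2.28, and Enpp1 with 6.70 and 2.83. Csf1 had a ratio of 4.72 in lamina propria, at 240.4 against 50.9 CPM, but of 1.14 in SILT, at 159.0 against 139.4.

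The Rgs5 side carried pericyte and vascular muscle genes. Notch3, the Notch receptor of vascular mural cells, was at 0 CPM on the Hhip side against 1053 on the Rgs5 side in Csf2+/+ lamina propria and 1.89 against 535.3 in SILT. Ebf1, a transcription factor of pericytes, was at 3.39 against 1082 and 17.0 against 752.8 CPM, and Ndufa4l2 at 1.69 against 489.9 and 1.89 against 474.0. Nr2f2, COUP-TFII, a transcription factor of veins, was at 32.2 against 1155 and 26.5 against 563.2 CPM. Heyl, a Notch target, was at 0 against 152.7 and 0 against 72.5 CPM. Adra2a, an adrenergic receptor, was at 0 against 171.8 and 0 against 100.4 CPM, and Pde3a, a phosphodiesterase of cyclic nucleotides, at 98.2 against 744.4 and 60.6 against 356.9. Gucy1a1 was at 372.4 CPM on the Hhip side against 1107 on the Rgs5 side and 435.4 against 942.4. The ligands Ccl11, eotaxin, at 0 against 302.2 and 0 against 496.3 CPM, and Kitl, the Kit ligand, at 32.2 against 286.3 and 22.7 against 239.8, were on the same side. Of 16 measured vascular muscle and pericyte genes 11 were at least 2-fold lower on the Hhip side in both libraries and none was higher, against 4.47% of all genes lower, and Rgs5 itself belongs to that list.

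Members past both thresholds were closer to the Hhip side in these genes. In Csf2+/+ SILT they had 2382 CPM of Actg2, 1321 of Cnn1, 422.4 of Igf1, 0 of Notch3 and 0 of Ndufa4l2, and in Csf2+/+ lamina propria 1382 CPM of Actg2, 779.9 of Cnn1, 355.0 of Igf1, 16.1 of Notch3 and 5.38 of Ndufa4l2.

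**Figure D4:**
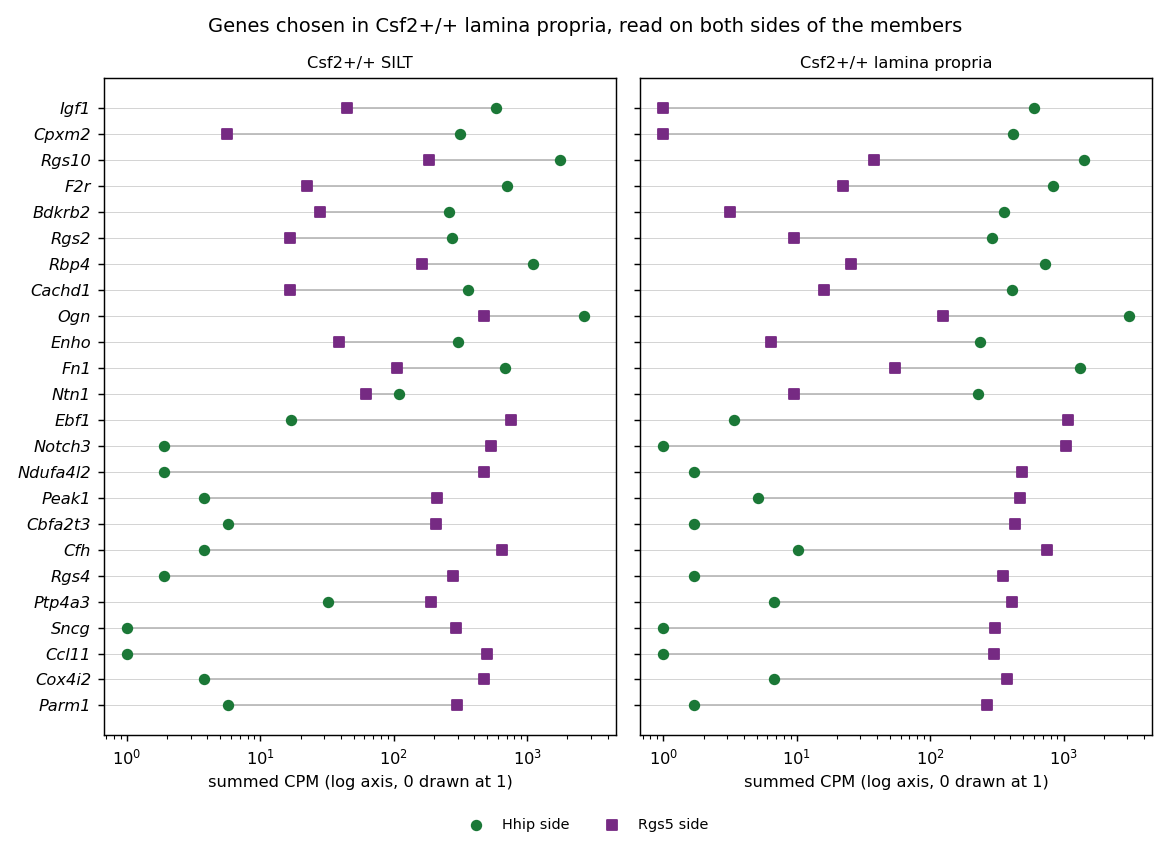
Summed CPM on a log x axis (0 drawn at 1) for 24 genes chosen in Csf2+/+ lamina propria, 12 higher and 12 lower on the Hhip side, with the Hhip side and the Rgs5 side joined by a line, in 1 panel per Csf2+/+ tissue. In SILT every one of the 24 lies on the same hand of its partner as in lamina propria, with Ntn1 the closest pair among the upper 12.

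Between Csf2-/- and Csf2+/+ SILT, the comparison asks whether members differ with the loss of Csf2 in the lymphoid tissue. Many pericyte and vascular muscle genes were higher in Csf2-/- SILT, and Actg2 and Cnn1 were lower. Des was at 370.0 CPM against 177.8, a ratio of 2.08 (1.31 to 3.19), and Ebf1 at 725.1 against 180.1, a ratio of 4.03 (2.86 to 5.58). Actg2 was at 591.9 CPM in Csf2-/- SILT against 1434 in Csf2+/+ SILT, a ratio of 0.413 (0.293 to 0.565), Cnn1 had a ratio of 0.465 (0.305 to 0.683), Acta2 of 0.614 (0.553 to 0.679) and Myh11 of 0.80 (0.713 to 0.895). Of 18 vascular muscle and pericyte genes over the floor (at least 30 UMIs over both libraries and 50 CPM in 1), 12 were at least 2-fold higher and none lower, with a median log2 ratio of 1.25 against 0.04 over all genes; 11.1% of all genes were higher.

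Read within the Rgs5 side only, that list had 1 of 15 genes higher and 2 lower, with a median log2 ratio of 0.02, where 4.25% of all genes were higher and 12.9% lower. The ratio of Des was 0.961 within the Rgs5 side and 2.08 over all members, that of Ebf1 1.46 and 4.03, and that of Ndufa4l2 0.969 and 2.74. The Rgs5 side was 44.4% of members in Csf2-/- SILT and 23.9% in Csf2+/+ SILT, with overlapping intervals. The within-side reading rests on 4 Csf2-/- cells against 27 Csf2+/+ cells. These 4 include the Kit-carrying member, which held 16855 of their 43554 UMIs and 0 UMIs of Des and of Notch3. The Rgs5 side was not read without it, so these within-side ratios depend on that cell. Actg2, which chose the members, was at 1166 CPM in Csf2-/- against 1647 in Csf2+/+ on the Hhip side and at 275.5 against 457.3 on the Rgs5 side. Cnn1 was at 832.6 against 1005 CPM on the Hhip side and at 160.7 against 262.1 on the Rgs5 side, so neither gene was past 2-fold within a side. Without the Kit-carrying member the ratio of Cnn1 was 0.528, and none of 22 contractile filament genes was at least 2-fold lower, where 3 of 23 had been with it and 13.4% of all genes were.

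Over all 3916 genes measured, 434 were at least 2-fold higher in Csf2-/- SILT (11.1%) and 525 lower (13.4%). With edgeR's TMM factors in place of total counts the split was 182 higher and 983 lower, the median of all genes shifting by -0.35 on the log2 scale. Of the 434 higher genes 251 stayed at least 1.5-fold higher without their highest cell, and 52 of the lower ones had 0 UMIs in the 9 Csf2-/- members. Counting intervals were clear of 1 for 240 higher and 181 lower genes, and those of the other genes past 2-fold reached 1.

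Single cells carried much of the top of this list. Satb1, a chromatin organiser, was at 296.0 CPM in Csf2-/- SILT against 13.9 in Csf2+/+ SILT, a ratio of 21.2, but 16 of its 20 Csf2-/- UMIs were in 1 cell and the ratio without the highest cells was 5.09. Col23a1, a transmembrane collagen, had 17 of 21 UMIs in 1 cell, and Igfbp5, which binds insulin-like growth factors, 81 of 143. Igfbp5 was at 2116 CPM against 312.6, a ratio of 6.77 (5.49 to 8.32), and of 3.18 without the highest cells. Ano1 was at 296.0 CPM against 45.3, with 19 of its 20 UMIs in the Kit-carrying cell. Ccn3, a matrix-associated signalling protein, was at 473.6 against 70.9 CPM, and Parm1 at 444.0 against 69.7. Without the Kit-carrying member the ratio was 5.66 for Satb1, 4.52 for Col23a1, 3.91 for Igfbp5 and 2.55 for Parm1.

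Some matrix and adhesion genes were among the lower ones. Itga8, the integrin alpha chain of smooth muscle, was at 14.8 CPM in Csf2-/- SILT against 246.3 in Csf2+/+ SILT, a ratio of 0.0601 (0.00151 to 0.338). Lum, the proteoglycan lumican, was at 44.4 against 404.4 CPM, Vcan, versican, at 29.6 against 216.1, and the chemokine gene Cxcl12 at 14.8 against 190.6. In Csf2-/- SILT 3 counts stood for 44.4 CPM, so Itga8, Lum, Vcan and Cxcl12 rested on at most 3 UMIs each there. Sncaip had 0 UMIs in Csf2-/- SILT and 174.3 CPM in Csf2+/+ SILT, at least 3.93-fold lower by the limit of 3 counts over the group, and Nupr1, a stress-response gene, was at least 2.88-fold lower. Of 40 matrix genes over the floor 7 were higher, Lama5, Lamb2, Col18a1, Eln, Emilin1, Tnc and Lox, and 7 lower, against 11.1% and 13.4% of all genes, so the list as a whole was near all genes. Of 34 immediate early and heat-shock genes 5 were higher and 10 lower, with Fos at 1021 CPM in Csf2-/- SILT against 2093 in Csf2+/+ SILT. Without the Kit-carrying member 5 of 33 were higher and 8 lower, and Fos was not past 2-fold. Of 15 contraction regulators 4 were lower, Ppp1r14a, Calm2, Camk2g and Ilk, and none was higher, against 13.4% of all genes lower.

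Between Csf2-/- and Csf2+/+ lamina propria the vascular muscle and pericyte list was again higher. Of its 21 genes over the floor 13 were at least 2-fold higher in Csf2-/- and none lower, with a median log2 ratio of 1.36 against 0.05 over all genes, where 8.22% of all genes were higher. Within the Rgs5 side only, 1 of 22 was higher and 1 lower, with a median of 0.36, against 3.86% of all genes higher and 8.12% lower. Ebf1 was at 1261 CPM in Csf2-/- against 317.8 in Csf2+/+, a ratio of 3.97 (3.31 to 4.74) that was 1.90 within the Rgs5 side, and Des had a ratio of 2.12 (1.69 to 2.63) that was 1.06 within it. The Rgs5 side was 68.8% of members in Csf2-/- lamina propria and 29.6% in the Csf2+/+ lamina propria, counted over the cells of 1 library each.

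Over all members Acta2 and Actg2 were near even and Myh11 was lower. Acta2 had a ratio of 1.07 (0.998 to 1.15), Actg2 of 0.930 (0.760 to 1.13) and Myh11 of 0.557 (0.509 to 0.608). Within the Hhip side Actg2 was at 1822 CPM in Csf2-/- against 1144 in Csf2+/+, and Acta2 at 11596 against 6837. Myh11 was at 5508 against 8235 there. Within the Rgs5 side Actg2 was at 218.7 against 143.2 CPM, Acta2 at 3095 against 3646 and Myh11 at 2548 against 3471. The Csf2-/- values rest on 4 Hhip-side and 11 Rgs5-side cells. Of 23 contractile filament genes none was at least 2-fold higher in Csf2-/- lamina propria and 2 were lower, Myh10 and Lmod1, Lmod1 being at 382.5 CPM against 822.9 in Csf2+/+. Over all genes 8.22% were higher and 8.74% lower, so the count of lower genes was near the background. Hhip was at 1040 CPM in Csf2-/- against 2608 in Csf2+/+ lamina propria, a ratio of 0.399 (0.337 to 0.469), and of 0.757 within the Hhip side, a side that is set by Hhip.

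Immediate early and heat-shock genes, which are induced within minutes of stimulation or dissociation, were higher in Csf2-/- lamina propria: 14 of 32 were at least 2-fold higher and none lower, with a median log2 ratio of 0.83, and 8.22% of all genes were higher. Fos was at 4207 CPM in Csf2-/- members and 1648 in Csf2+/+ members, Nr4a1 at 362.3 against 83, a ratio of 4.36 (3.07 to 6.14), and Dusp1, a phosphatase of MAP kinases, at 744.8 against 243.2. In endothelial-gated cells of the same libraries Fos was at 1776 CPM against 1345. The list had 6 of 30 genes higher within the Rgs5 side, against 3.86% of all genes. Within the Hhip side 9 of 28 were higher and 2 lower, against 5.66% and 19.0% of all genes. Nr4a1 was above 1 within the Rgs5 side, at 2.50, and at 0.720 within the Hhip side. The effect of tissue dissociation was not tested.

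Over all members, several niche, matrix and purinergic genes were lower in Csf2-/- lamina propria. Of 23 BMP, Wnt and niche genes 9 were at least 2-fold lower and 2 higher, with a median log2 ratio of -0.98, where 8.74% of all genes were lower. Wnt5a was at 26.8 CPM in Csf2-/- against 102.5 in Csf2+/+, a ratio of 0.262 (0.0702 to 0.688). Of 40 matrix genes 8 were lower, Fn1 and Ogn among them, and 1 was higher. Without the Pdgfra-carrying members 5 of 37 were lower. The Hhip side was 25.0% of Csf2-/- and 52.0% of Csf2+/+ members. Within it 2 of 21 niche genes and 7 of 38 matrix genes were lower and 0 higher, against 19.0% of all genes lower. Within the Rgs5 side 6 of 15 niche genes were lower and 0 higher, against 8.12% of all genes lower. Of 31 matrix genes 5 were lower there and 1 was higher. Grem1, a BMP antagonist, was at 20.1 against 120.3 CPM, with 83 of its 142 Csf2+/+ UMIs in 1 cell. Entpd1 was at 154.3 CPM in Csf2-/- against 347.4 in Csf2+/+, a ratio of 0.444 (0.278 to 0.676) that was 0.518 within the Hhip side and 0.465 within the Rgs5 side. Enpp1 had a ratio of 0.400, and these 2 of 4 purinergic genes over the floor were at least 2-fold lower. In SILT, Entpd1 had a Csf2-/- to Csf2+/+ ratio of 0.756 (0.449 to 1.20). Csf1 had a ratio of 0.540 (0.297 to 0.910) in lamina propria and of 1.30 (0.693 to 2.26) in SILT; the difference between tissues was not tested.

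In all, 343 of 4175 genes were at least 2-fold higher in Csf2-/- lamina propria (8.22%) and 365 lower (8.74%). With TMM factors the split was 257 higher and 499 lower, with a shift of -0.12 on the log2 scale. Furthest up was Nfkbiz, a nuclear regulator of NF-kappa-B targets, at 221.4 CPM in Csf2-/- against 24.6 in Csf2+/+, a ratio of 9.01 (5.30 to 15.4). Slc11a1 was at 161.0 against 31.4 CPM, Itga7, a laminin-binding integrin chain, at 161.0 against 32.2, and Eln, elastin, had a ratio of 3.96 (2.16 to 7.04). Among the lower genes, Plau, the protease urokinase, was at 6.71 CPM in Csf2-/- against 109.3 in Csf2+/+. F3, tissue factor, was at 6.71 against 89.8 CPM, a ratio of 0.193 without the Pdgfra-carrying members. Its log2 ratio within the Rgs5 side was 1.78, the other way. In Csf2-/- lamina propria 6.71 CPM stood for 1 UMI. Fzd1, a Wnt receptor, had 0 UMIs in Csf2-/- against 68.6 CPM in Csf2+/+, at least 3.41-fold lower. Gja1 also had 0 UMIs against 68.6 CPM, but 79 of its 81 Csf2+/+ UMIs were in the 5 Pdgfra-carrying members. Malat1, a nuclear transcript that rises in share when cytoplasmic RNA is lost, was at 97937 CPM in Csf2-/- SILT and 42727 in Csf2+/+ SILT, and at 60819 in Csf2-/- lamina propria and 41065 in the Csf2+/+ lamina propria. Endothelial-gated cells had 26877 to 32689 CPM and pericyte-gated cells 70980 to 93968 CPM. The part of RNA quality in these differences was not tested.

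The largest 2 sets of members, 113 in Csf2+/+ SILT and 98 in Csf2+/+ lamina propria, gave the smallest share of genes past 2-fold. Of 3869 genes 64 were at least 2-fold higher in SILT (1.65%) and 167 lower (4.32%), and the counting interval was clear of 1 for all of them. With TMM factors 113 were higher and 143 lower. Thin filament genes were higher in SILT by less than 2-fold: Tagln was at 8602 CPM against 4699 in lamina propria, a ratio of 1.83 (1.77 to 1.90), and Acta2 had a ratio of 1.65 and Actg2 of 1.71. Myh11 had a ratio of 0.929. The contractile filament list had none of 23 genes past 2-fold higher and 1 lower, Myh9, which was not past 2-fold without the Pdgfra-carrying members, with a median log2 ratio of 0.13 against -0.03 over all genes. Within the Rgs5 side 3 of 21 were higher, Acta2, Tagln and Cnn1, and none lower, against 7.97% and 8.57% of all genes.

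Vascular muscle and pericyte genes were lower in SILT for 4 of 18, with none higher, against 4.32% of all genes lower; without the Pdgfra-carrying members 6 of 19 were. Pdgfrb, the platelet-derived growth factor receptor of mural cells, had a ratio of 0.389 (0.309 to 0.485), and of 0.412 within the Rgs5 side. Tcf21, a transcription factor of mesenchymal cells, was at 871.5 CPM in SILT against 385.6 in lamina propria. Gstp1, a glutathione transferase, was at 268.4 against 94.9 CPM, a ratio of 2.83 (2.25 to 3.58) that was 2.86 within the Hhip side and 2.60 within the Rgs5 side. P2ry14 had a ratio of 1.52 (1.28 to 1.81).

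The genes at the ends of this comparison were partly seen in other cell types or in single cells. Lars2, the mitochondrial leucine tRNA ligase, was at 198.7 CPM in SILT members against 1075 in lamina propria members, a ratio of 0.185 (0.157 to 0.217), and the endothelial-gated cells had 248.5 against 835.1 CPM and the pericyte-gated cells 163.2 against 1019. Cd52, a leukocyte glycoprotein, was at 131.3 CPM in SILT against 15.3, with 46 of 113 UMIs in 1 cell, and endothelial-gated cells had 131.5 against 15.3. Stmn1 had a ratio of 4.57, and of 1.95 without the highest cells. The macrophage markers Lyz2, Tyrobp and Fcer1g were at least 2-fold higher in SILT members, with Lyz2 at 324.2 CPM against 92.4 in lamina propria, and at 246.4 against 99.4 in endothelial-gated cells. Igkc, an immunoglobulin light chain, was at 1048 CPM in SILT members against 125.4 in lamina propria, and at 2601 against 132.1 in endothelial-gated cells, so leukocyte transcripts were higher in both cell types of the SILT library. Gja1 was at 2.32 CPM in SILT against 68.6 in lamina propria, and the ratio was 1.27 without the Pdgfra-carrying members. Col4a5, a collagen of basement membranes, had a ratio of 0.225 that was 0.741 without them.

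**Figure D5:**
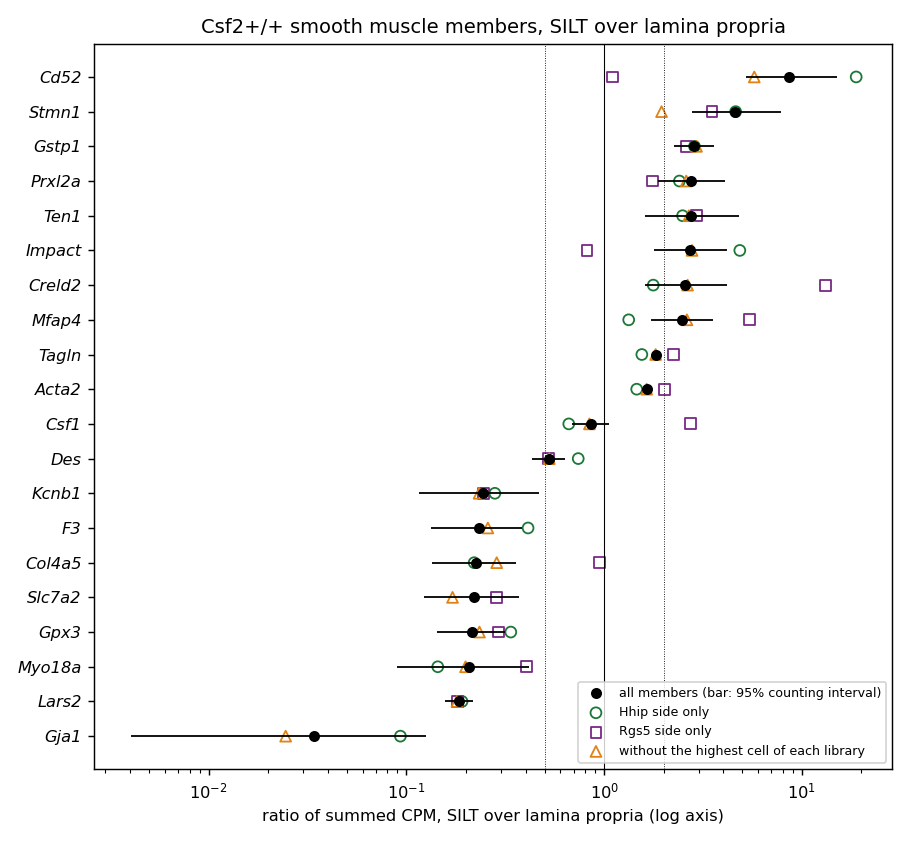
Ratio of summed CPM, SILT over lamina propria, on a log x axis for 20 genes of Csf2+/+ smooth muscle members, with a 95% counting bar for all members and open symbols for the Hhip side, the Rgs5 side and the reading without the highest cell of each library; dotted lines mark 2-fold. Lars2 and Gstp1 keep their place in every reading, at 0.185 and 2.83 over all members, whereas Cd52, Stmn1, Impact and Csf1 spread widely.

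Between Csf2-/- SILT and Csf2-/- lamina propria the counts were the thinnest, with 9 members against 16. Of 1257 genes 55 were at least 2-fold higher in SILT (4.38%) and 108 lower (8.59%), and with TMM factors 30 were higher and 146 lower, the median of all genes shifting by -0.17 on the log2 scale. Immediate early and heat-shock genes were lower: 11 of 28 were at least 2-fold lower and 1 was higher, with a median log2 ratio of -0.75 against -0.07 over all genes, where 8.59% of all genes were lower. Fosb was at 207.2 CPM in Csf2-/- SILT against 1751 in Csf2-/- lamina propria, a ratio of 0.118 (0.0638 to 0.202), and Ier2 at 29.6 against 322.1. Within the Hhip side 8 of 11 were lower and none higher, against 7.35% and 3.24% of all genes, and within the Rgs5 side 10 of 21 were lower and 1 higher, against 14.6% and 5.60%. Of 16 vascular muscle and pericyte genes 8 were lower. Within the Rgs5 side, which held the Kit-carrying member in Csf2-/- SILT, 8 of 14 were. Over all members but that one, 3 of 15 were.

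Other genes moved in single numbers. Tgfbi, a matrix protein induced by TGF-beta, was at 547.5 CPM in Csf2-/- SILT against 140.9 in Csf2-/- lamina propria, a ratio of 3.89 (2.22 to 6.99). P2ry14 was at 296.0 against 127.5 CPM, a ratio of 2.32 (1.18 to 4.60). Kitl was at 44.4 against 248.3 CPM. Atp1b3 was at 340.4 against 53.7 CPM with 18 of 23 UMIs in 1 cell, and its ratio without the highest cells was 1.84. The contractile filament list had 0 of 21 genes higher and 1 lower, against 4.38% and 8.59% of all genes. The Csf2-/- libraries also serve in the genotype comparisons, and the Csf2+/+ libraries in theirs, so the 4 comparisons share samples and are not independent of each other.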

How the data were processed

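The authors deposited 10x 3′ UMI counts per gene and barcode for 4 libraries, whole numbers with no normalization. Per the submitters' processing notes, Cell Ranger 2.1.1 and mm10 were used; per the file headers, version 6.0.0 wrote the matrices; per the labels' protocols, chemistry was version 2. These were not reconciled. Barcodes were already called, with lowest totals of 500 to 502 UMIs; free RNA was not subtracted. Chemistry and calling affect depth and the shares of cells.

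Groups follow the labels' genotype and tissue. Counts were summed over members per library and scaled to CPM with Python 3.11.15, numpy 2.4.6, scipy 1.17.1 and pandas 2.3.3; figures used matplotlib 3.10.9. Ratios have exact conditional binomial 95% intervals, shares Clopper-Pearson intervals. A gene counted as higher or lower past 2-fold, over a floor of 30 UMIs in both libraries together and 50 CPM in 1, leaving out the genes of the members' rule. Lists are described by counts and medians, with genes at 0 held at 3 counts. Doublets were called with Scrublet in scanpy 1.11.5 and kept in the main result: 2 members, both in Csf2+/+ SILT. TMM factors came from edgeR 4.0.16 in R 4.3.3. The steps were tested on simulated counts.

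Genes named in each comparison were the 8 highest and 8 lowest past 2-fold that stayed at least 1.5-fold without the highest cell, the 2 furthest of each list, and Csf2, its receptor chains, Csf1 and the label's markers; other genes were named after their values were seen. Pericyte-gated and other gates used marker UMIs of the same cells. The members and the lists were chosen with earlier results of these data known, and the Hhip and Rgs5 sides, the reading without Kit- or Pdgfra-carrying members and the depth alternative after seeing the data. Some genes that the rule names are not reported here.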

Additional observations from a re-analysis of the deposited data

Results flagged for a closer look

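5 genes had opposite readings of the same contrast in 2 groups of smooth muscle members, each past 2-fold in at least 1 of them; in every case the difference itself was not tested, and each group is 1 library. Clmp, an adhesion molecule gene, had a Csf2-/- to Csf2+/+ ratio of 4.05 in SILT and of 0.0733 in lamina propria. For the other 4 genes the contrast was SILT over lamina propria. Msi2, an RNA-binding protein gene, had a ratio of 4.75 in Csf2-/- and of 0.501 in Csf2+/+ members, and 20 of its 28 UMIs in Csf2-/- SILT were in 1 cell. Tcf21 had a ratio of 0.564 in Csf2-/- and of 2.26 in Csf2+/+ members. The immediate early gene Ier2 had a ratio of 0.0919 in Csf2-/- and of 1.31 in Csf2+/+ members, and the heat-shock gene Hspa1b of 0.163 and 1.44.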

How the results depend on the processing

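The number of genes past 2-fold stayed within 1.5 times the main count under 40 alternative readings and moved under 14. With a floor of 10 UMIs and none on CPM the counts were 3273 genes between Csf2-/- and Csf2+/+ SILT, 2612 between Csf2-/- and Csf2+/+ lamina propria, 1550 between Csf2+/+ SILT and lamina propria and 1010 between Csf2-/- SILT and lamina propria. These were 38.3%, 26.7%, 14.6% and 24.7% of the genes measured at that floor. With a floor of 100 UMIs and 100 CPM the counts were 250, 219, 94 and 19, or 15.5%, 10.8%, 4.64% and 6.79%. The main counts were 959 of 3916, 708 of 4175, 231 of 3869 and 163 of 1257 genes. Rgs5-side members alone gave 222 of 1293, 295 of 2462 and 496 of 2999 genes in the first 3 comparisons. Only the 496 were a larger share than in the main reading, 16.5% against 5.97%. The 222 were 17.2% against 24.5%. In the last comparison Hhip-side members gave 36 of 340 genes. All members there gave 265 of 2107 at a gate of 5 UMIs and 83 of 702 at a gate of 20. Those 3 counts were 10.6%, 12.6% and 11.8% of genes measured, near the main share, so they moved mainly with the number of genes over the floor. The share of members was 1.87% at a gate of 5, 1.15% at 20, 1.04% under stricter lineage limits and 2.03% among cells of at least 4000 UMIs in Csf2+/+ SILT; 1.62%, 0.456% and 0.456% under the first 3 in Csf2-/- lamina propria; and 3.25% at a gate of 5, 1.27% under stricter limits and 2.80% among deep cells in Csf2+/+ lamina propria. With limits of at least 1 Hhip UMI and under 10 Rgs5 UMIs, the share moved in 1 reading and stayed in 3. The share of members with an Actg2 UMI, thinned to 1000 UMIs, also moved in 1 reading and stayed in 3. List medians moved in 49 readings and stayed within their spread in 403. Readings of named genes moved in 206, reversed in 19 and stayed in 1075. The reversed log2 ratios were, for Csf2-/- over Csf2+/+ SILT, Ano1 at -1.37 without the highest cells and -1.20 without the Kit-carrying member, Ptger1 at 0.87 on the Hhip side, and Iigp1 at -0.10, Ndufa4l2 at -0.05 and Des at -0.06 on the Rgs5 side. For Csf2-/- over Csf2+/+ lamina propria they were F3 at 1.78, Enpp1 at 0.46 and Wnt5a at 0.78 on the Rgs5 side, Prkar2b at -0.29 on the Hhip side, and Nr4a1 at -1.51 among members with at least 10 Actg2 UMIs and -0.47 on the Hhip side. For SILT over lamina propria they were, in Csf2+/+, Impact at -0.29, Grem1 at 0.38 and Aldh1a1 at 0.81 on the Rgs5 side and Gja1 at 0.35 without Pdgfra-carrying members, and in Csf2-/-, St5 at 0.01 on the Hhip side and Ano1 at -1.44 without the highest cells and -1.77 without the Kit-carrying member. The cause was not tested. Members with at least 10 Actg2 UMIs could not be read in comparisons with Csf2-/- SILT, which had 2, under the minimum of 4. No paired analysis was possible because each group is 1 library. Depth limits the Csf2-/- SILT members most: 3 counts there stood for 44.4 CPM.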
